A study of Mus musculus with 4 samples.

Results

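The genes described are 10 genes of osteoclast formation and function: *Tnfsf11*, *Tnfrsf11a*, *Calcr*, *Oscar*, *Nfatc1*, *Dcstamp*, *Ocstamp*, *Atp6v0d2*, *Acp5* and *Ctsk*. They were chosen by name, with earlier results of these data known. A probe counted for a gene when its transcript accession belonged to that gene. All 10 were on the array, with 17 of its 56605 probes, among 45604 genes tested. Gene expression was measured on 4 one-color arrays of the septal nasal mucosa, which the labels also call olfactory epithelium, from C57BL/6J mice that the design text describes as male. The young adult mice were 8 weeks old and the aged mice 16 months old, and neither a treatment nor an engineered allele was given for the titles' groups. Each age had 2 arrays, and each array carried Cy3-labelled RNA pooled from 5 mice. The methods count fewer mice per age for gene analyses than separate pools would require, so the pools of an age may share mice, the spread between them may be partly technical, and the mouse-to-mouse spread was not measured. A silica and lung description in the labels matched neither the sample titles nor the methods and was not used.

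Osteoclasts are multinucleated cells of the macrophage lineage that resorb bone. The cytokine RANKL, encoded by *Tnfsf11*, binds its receptor RANK (*Tnfrsf11a*) on precursors, and with co-stimulation through immunoreceptors such as OSCAR this induces the transcription factor NFATc1. NFATc1 in turn drives the genes of cell fusion and of resorption, and the nasal mucosa lies on the septal and turbinate skeleton, where bone is remodelled. Several of the 10 genes are also expressed by other cells, such as *Acp5* and *Ctsk* by macrophages and fibroblasts and *Nfatc1* by lymphocytes and endothelium.

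The mature olfactory neuron marker *Omp* had a normalized intensity of 286061 to 332591 over the 4 arrays, and all 8 olfactory neuron markers were above background on every array. A normalized intensity is the spot brightness after background correction and quantile normalization, and it was compared between arrays gene by gene. A sum over a list is carried by its brightest genes. Of the non-control spots, 63.1 to 76.8% were well above background per array, and 0 were saturated. *Xist*, the transcript that silences an X chromosome in female cells, was at 612.3 to 645 on the 4 arrays, while none of 10 probes for 7 Y-linked genes was above background on any array, against the stated sex. The pituitary hormone gene *Prl* was at 282 and 238 on the young adult arrays, against 8155 and 7969 on the aged arrays. The part of either in the differences below was not tested.

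Across the 10 genes, the 2 genes of resorption fell most in aged mice, *Acp5* by 3.05-fold and *Ctsk* by 2.57-fold. The fusion genes *Dcstamp* and *Atp6v0d2* also fell. *Tnfsf11* and *Nfatc1* had positive log2 fold changes (0.23 and 0.18). A gene was called when its limma P was below 0.05 and its false discovery rate (FDR, Benjamini-Hochberg over all 45604 genes) was below 0.25, the study's thresholds. By this rule 4 of the 10 were called lower, where 2.33% of all genes were, and 0 were called higher, where 1.65% were. At an unadjusted limma P below 0.05 the counts were 6 lower, where 7.08% of all genes were, and 0 higher, where 6.05% were. Of the 4, *Acp5*, *Ctsk* and *Dcstamp* met all criteria for a differentially expressed gene (DEG), which add a mean intensity of at least 100 and a 1.5-fold difference, and 1.15% of all genes were DEGs lower in aged mice.

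The aged arrays were both below the young adult arrays for 7 of the 10 genes, against 21.8% of all genes. Both lay above for 1 gene, *Nfatc1*, against 24.2% of all genes, and the ages overlapped for *Tnfsf11* and *Calcr*. The median log2 fold change of the 10 genes was -0.56, beside 0.0093 for all genes tested, and the median ran from -0.71 to -0.32 over the 4 pairings of a young adult with an aged array. An exact permutation of 2 arrays against 2 cannot give a two-sided p below 0.333. All tests therefore rest on limma's model of the spread, which combines each gene's own with that shared across genes. Without any 1 array, 1 residual degree of freedom was left, none of the 45604 genes was called and the smallest limma FDR of any gene was 0.404 to 0.683, so these fits cannot bear on the calls of the 10 genes. The log2 fold change of *Acp5* was between -1.63 and -1.59 in them. The FDR moved with the processing of all 4 arrays: for *Acp5* the limma FDR ran from 1.2e-05 with an intensity trend to 0.212 with the scanner's processed signal scaled to the 75th percentile. In those settings 3 to 6 of the 10 genes were called lower. In a bulk sample, fewer cells of a type and less RNA per cell cannot be told apart.

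**Figure D1:**
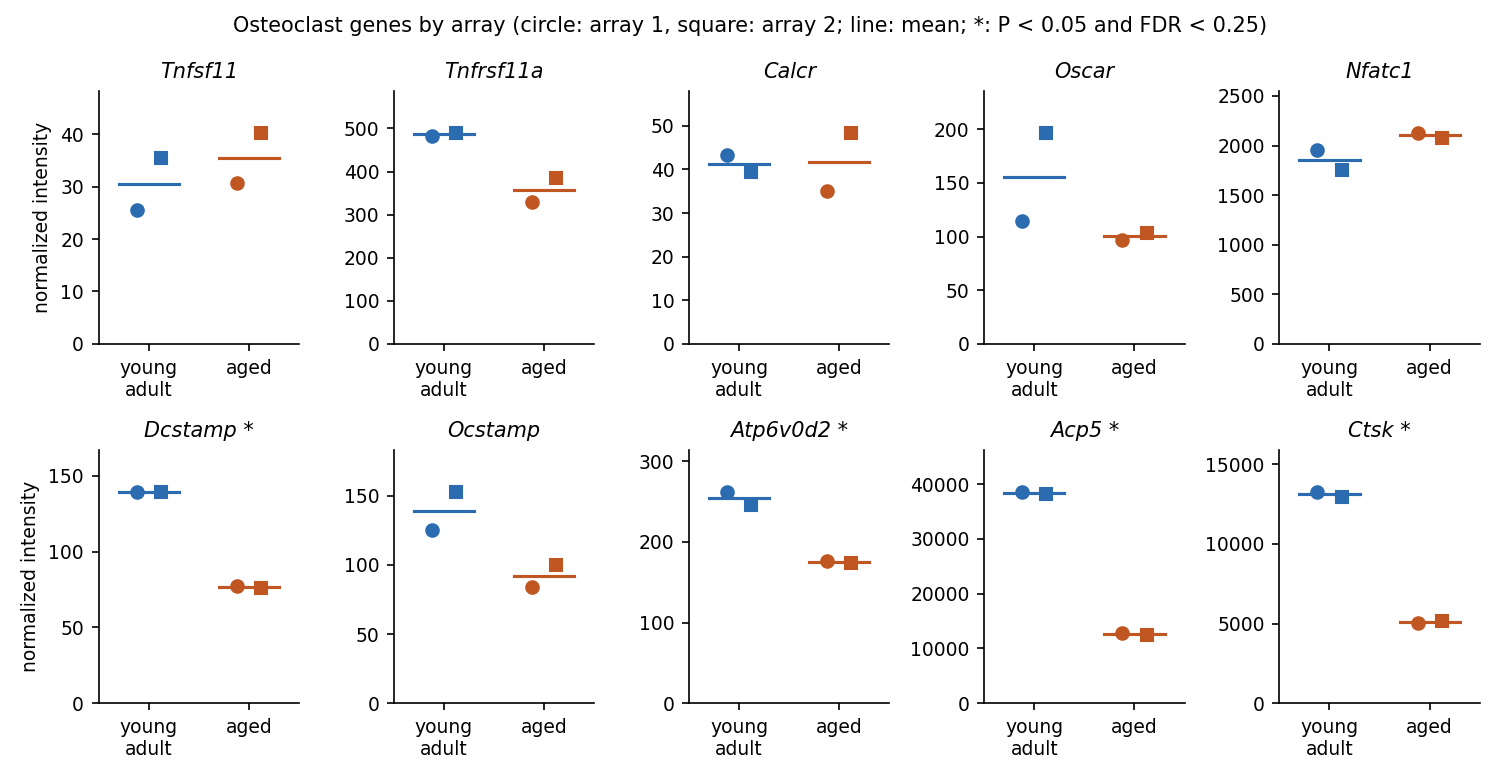
Normalized intensity (vertical axes, each from 0 and scaled to its gene) of the 10 osteoclast genes on the 2 young adult arrays (blue) and the 2 aged arrays (orange), with the mean of each age as a line and an asterisk for a called gene. *Acp5* averaged 38424 in young adult mice, against 12590 in aged mice, and the aged arrays lay below the young adult arrays in 7 panels.

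*Acp5* encodes tartrate-resistant acid phosphatase, the enzyme stained to identify osteoclasts. Its 1 probe read 38576 and 38271 on the young adult arrays, against 12735 and 12444 on the aged arrays. Arrays of one age differed by little and the ages were far apart. The log2 fold change was -1.61 (SE 0.0748, limma FDR = 0.168), a fall of 67.2%. Ordered by log2 fold change from the lowest, *Acp5* ranked 32 of the 25513 genes with a mean intensity of at least 100.

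*Ctsk* encodes cathepsin K, the cysteine protease that degrades type I collagen in the resorption pit. Its 1 probe read 13257 and 12951 in young adult mice, against 5023 and 5177 in aged mice. The ages did not overlap, and the log2 fold change was -1.36 (SE 0.0766, limma FDR = 0.168), a fall of 61.1%. It ranked 70 in the same order. Both enzymes rest on a single probe each, so no second probe checks either value.

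The promoters of both genes are shown because transcription factors of the osteoclast lineage are known to act on them. Each sequence is a RefSeq window of the GRCm38.p6 assembly, 250 bases before to 50 bases after an annotated start, written 5′ to 3′ on the gene's strand. Of the 10 members, 6 had such a window in the table used, 9 windows in all, and *Dcstamp*, *Ocstamp*, *Atp6v0d2* and *Nfatc1* had no entry. Of the 3 annotated starts of *Acp5*, the one whose window held the most kinds of motif is shown. Capitals mark matches on either strand to the NFAT core GGAAA, the PU.1 motif GAGGAAG or the MITF M-box TCATGTG or TCACGTG. The AP-1 motif TGANTCA was searched too. The *Acp5* window lies at chr9:22130549-22130848 on the minus strand and the *Ctsk* window at chr3:95498960-95499259 on the plus strand.

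Acp5: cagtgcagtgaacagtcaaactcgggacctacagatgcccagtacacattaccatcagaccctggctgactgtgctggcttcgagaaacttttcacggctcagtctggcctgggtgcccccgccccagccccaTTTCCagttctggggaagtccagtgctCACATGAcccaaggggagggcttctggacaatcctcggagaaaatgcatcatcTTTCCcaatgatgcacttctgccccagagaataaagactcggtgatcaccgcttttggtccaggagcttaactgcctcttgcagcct
Ctsk: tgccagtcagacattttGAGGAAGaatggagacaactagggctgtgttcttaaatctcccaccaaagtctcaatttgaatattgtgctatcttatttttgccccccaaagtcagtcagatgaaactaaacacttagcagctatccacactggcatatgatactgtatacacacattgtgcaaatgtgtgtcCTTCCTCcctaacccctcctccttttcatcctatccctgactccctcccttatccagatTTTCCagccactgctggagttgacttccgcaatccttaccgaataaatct

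The *Acp5* window held 2 NFAT cores, which begin 117 and 37 bases before the start, and 1 M-box 90 bases before it. The *Ctsk* window held 2 PU.1 motifs, which begin 233 and 59 bases before the start, and 1 NFAT core at the start itself. Over the 9 windows, 7 held the NFAT core, 2 the PU.1 motif, 1 the M-box and 0 the AP-1 motif. Of all 32851 windows of the same length, 61.3% held the NFAT core, 13.6% the PU.1 motif, 7.4% the M-box and 7.81% the AP-1 motif. A match is a description of letters and not a binding site, and a window without a match says nothing about the factor.

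Of the genes of fusion, by which mononuclear precursors become multinucleated, *Dcstamp* encodes the membrane protein DC-STAMP. It read 139 on each young adult array, and 77.4 and 75.8 on the aged arrays. The young adult arrays were nearly equal and both aged arrays lay far below. The log2 fold change was -0.86 (SE 0.0745, limma FDR = 0.178), a fall of 45%. Its 2 probes differed in size, with log2 fold changes of -1.02 and -0.70, and the dimmer one was not well above background on aged array 1. With the scanner's own processed signal scaled to the 75th percentile, the value was -1.17, and with a normexp offset of 50 it was -0.59.

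*Atp6v0d2* encodes the d2 subunit of the vacuolar proton pump, enriched in osteoclasts and required for their fusion. It read 262 and 246 in young adult mice, against 176 and 174 in aged mice, without overlap. The log2 fold change was -0.53 (SE 0.0812, limma FDR = 0.214), which was called but under the 1.5-fold limit of a DEG. Its 2 probes gave -0.68 and -0.39. Scaling to the 75th percentile in place of quantile normalization ended this call (limma FDR = 0.275).

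*Ocstamp*, which encodes the second fusion protein of this kind, OC-STAMP, was not called. Its 1 probe read 125 and 153 in young adult mice, against 83.7 and 100.04 in aged mice. The aged arrays lay below the young adult arrays, but each age spread widely, and the probe was not well above background on aged array 1. The log2 fold change was -0.60 (SE 0.165, limma FDR = 0.325). It was called in 5 of the 19 alternatives that gave it a value. Not all of these could call a gene. The fits with 1 residual degree of freedom called 0 of all 45604 genes, and single array pairs had no test.

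Among ligand and receptors, *Tnfrsf11a* was nearest to a call. It read 482 and 490.03 in young adult mice, against 328 and 386 in aged mice. Both aged arrays were lower, and the log2 fold change was -0.45 (SE 0.116, limma FDR = 0.309), short of the FDR limit. It was called in 4 of the same 19 alternatives, not all of which could call a gene. Its 2 probes, both above background on all arrays, gave -0.28 and -0.62.

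*Oscar*, the co-stimulatory receptor for collagen, read 114 and 197 on the young adult arrays, against 97.1 and 104 on the aged arrays. The aged arrays lay below, but young adult array 2 stood far above the other three. The log2 fold change was -0.58 (SE 0.312, limma FDR = 0.54) and rested on that array: it was -0.19 without it and -0.97 without young adult array 1. The 2 probes of *Oscar* gave -0.30 and -0.86. The dimmer one, at -0.86, read 57.2 and 133 on the young adult arrays and was not well above background on aged array 1.

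*Tnfsf11*, the gene of RANKL, was too dim for a level in young adult mice. It read 25.5 and 35.4 on the young adult arrays, where neither of its 2 probes was well above background, and 30.7 and 40.3 on the aged arrays, where 1 probe was, on aged array 2 alone. The ages overlapped, and a difference was not detectable at this signal (limma FDR = 0.739). *Calcr*, the gene of the calcitonin receptor of mature osteoclasts, read 43.2 and 39.4 in young adult mice, against 35.1 and 48.4 in aged mice, with overlap. Its brighter probe was above background on 3 arrays and the other on none, and the limma FDR was 0.996.

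*Nfatc1*, the master transcription factor of the lineage, read 1957 and 1748 in young adult mice, against 2129 and 2074 in aged mice. The values of both aged arrays exceeded those of both young adult arrays, by less than the test could separate (log2 fold change 0.18, SE 0.0977, limma FDR = 0.534). Its 2 probes gave 0.18 and 0.19. Among the 19 alternatives, not all of which could call a gene, only an intensity trend in the limma variance called it higher (FDR = 0.221).

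**Figure D2:**
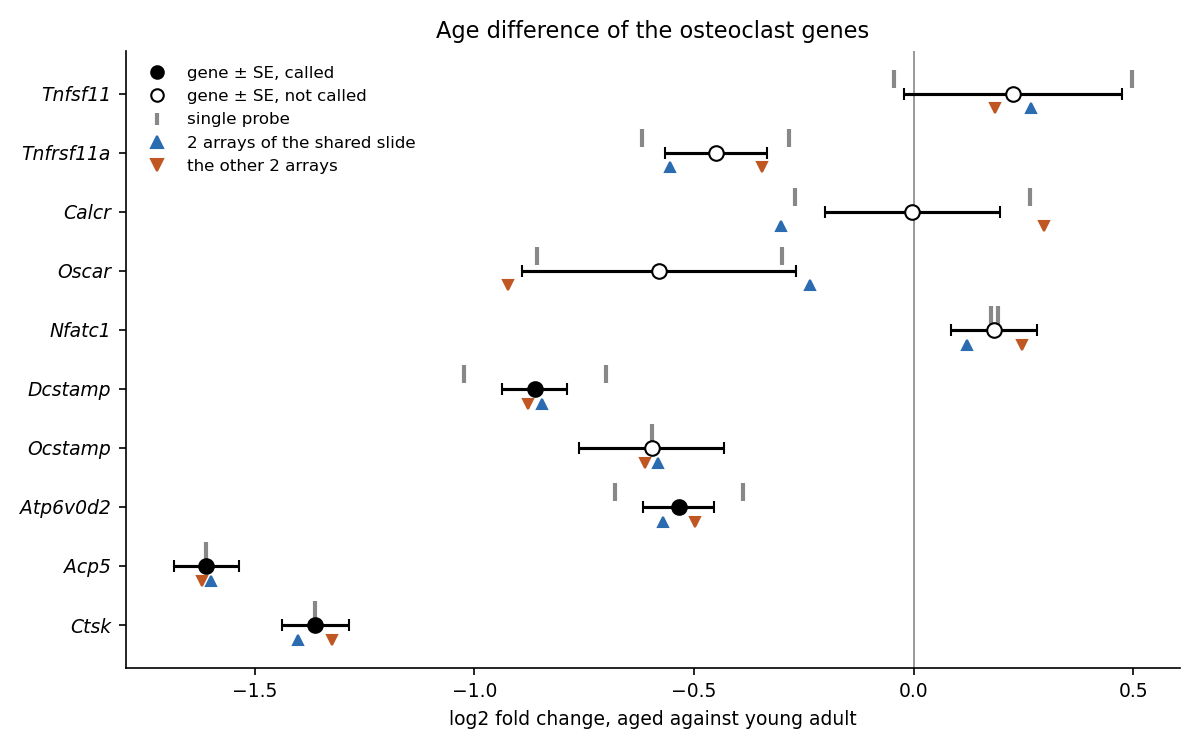
Log2 fold change of each osteoclast gene, aged against young adult (horizontal axis), with the standard error of the limma fit, filled where called; grey ticks are single probes, and triangles are single differences between the 2 arrays of the shared slide and between the other 2 arrays. The called genes run from -1.61 (*Acp5*) to -0.53 (*Atp6v0d2*), and both triangles of each lie on the same side of 0.

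A single slide held young adult array 1 with aged array 1, and the remaining arrays were on separate slides. Within that slide the log2 difference was -1.60 for *Acp5*, -1.40 for *Ctsk*, -0.85 for *Dcstamp* and -0.57 for *Atp6v0d2*. Between the other 2 arrays it was -1.62, -1.32, -0.88 and -0.50 in the same order. The called genes differed by about the same amount within the slide as across slides. For *Calcr* the differences were -0.30 within the slide and 0.30 outside it, and for *Oscar* they were -0.24 and -0.92. Of the 17 probes, 13 were lower and 4 higher in aged mice, 9 were above background on all arrays and 2 on none.

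Beyond these 10 genes, a list of 55 other genes of osteoclast formation and function was read by role. Of the 55, 11 were called lower and 0 higher, against 2.33 and 1.65% of all genes. At an unadjusted limma P below 0.05 the counts were 17 and 2, against 7.08 and 6.05% of all genes. In all, 36 were lower and 19 higher, with a median log2 fold change of -0.12. With any 1 array left out no gene of the whole table was called, and other background, normalization, probe and variance settings gave 5 to 20 called lower and up to 5 called higher.

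Co-stimulation had 3 of its 4 genes called lower. *Fcer1g*, the FcR gamma adaptor with which OSCAR signals, read 2497 and 2569 in young adult mice, against 1405 and 1556 in aged mice (log2 fold change -0.78, SE 0.0943, limma FDR = 0.196). *Tyrobp*, the DAP12 adaptor, was at -0.69 (limma FDR = 0.189). *Trem2*, the receptor that signals through DAP12, was at -0.73 (limma FDR = 0.187). All 3 are also expressed in macrophages and were lower on each aged array than on either young adult array.

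Of the 13 genes of RANK signalling, 2 were called lower, the kinase genes *Btk* (-0.61, limma FDR = 0.242) and *Syk* (-0.44, limma FDR = 0.245). *Btk* had a mean below the DEG limit, at 80.1 and 70.1 in young adult mice, against 50.8 and 47.4 in aged mice. Only 1 of its 2 probes was above background on any array, and its call was lost with the most intense probe (-0.34, limma FDR = 0.447), without background correction (-0.27, limma FDR = 0.291), with 75th percentile scaling (limma FDR = 0.403), with bright probes and with the processed signal. None of the 10 further transcription factors was called, in a limma fit that gave 1 of them an unadjusted P below 0.05. Of 3 inhibitory transcription factors, *Irf8* was called lower (-0.49, limma FDR = 0.233), but not with the processed signal scaled to the 75th percentile (limma FDR = 0.262). Of the 3 genes of the macrophage colony-stimulating factor arm, the ligand gene *Csf1* was called lower (-0.45, limma FDR = 0.246). *Tnfrsf11b*, which encodes the decoy receptor osteoprotegerin that keeps RANKL from RANK, read 518 and 529 in young adult mice, against 421 and 509 in aged mice. It was not called (log2 fold change -0.18, SE 0.129, limma FDR = 0.626).

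In adhesion and cytoskeleton, 2 of 5 genes were called lower: *Itgb3*, the beta3 integrin subunit of the sealing zone (-0.57, limma FDR = 0.218), and *Pstpip1* (-0.43, limma FDR = 0.241). *Itgb3* lost its call with the processed signal, at -0.72 (75th percentile, limma FDR = 0.251) and -0.93 (quantile, limma FDR = 0.299). In matrix degradation and secretion, 2 of 6 were called lower. The other 4 were higher, 1 of them at an unadjusted limma P below 0.05, and the median log2 fold change of the 6 was 0.10. *Mmp9*, the gelatinase of osteoclasts and neutrophils, read 444 and 451 in young adult mice, against 230.2 and 174 in aged mice (-1.16, SE 0.173, limma FDR = 0.211), and lost its call with 75th percentile scaling of the normexp signal (limma FDR = 0.264) or the processed signal (limma FDR = 0.283). *Mmp14*, a membrane-bound collagenase, read 629 and 604 in young adult mice, against 334 and 383 in aged mice (-0.78, SE 0.108, limma FDR = 0.208). Of the 11 called genes, *Csf1*, *Syk* and *Pstpip1* fell outside the naming rule and were named after their values were seen.

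Acid secretion had 0 of 10 genes called by limma, with 1 lower and 1 higher at an unadjusted P below 0.05 and a median log2 fold change of 0.03. *Atp6v0d1*, the widely expressed counterpart of *Atp6v0d2* in the proton pump, read 7168 and 7594 in young adult mice, against 7946 and 8694 in aged mice (0.17, limma FDR = 0.545). *Tcirg1*, the a3 subunit of the same pump, was at -0.35 (limma FDR = 0.277). *Car2*, the carbonic anhydrase that supplies protons, was at 0.49 (limma FDR = 0.264), and its aged arrays lay above its young adult arrays. These 3 genes were named after their values were seen. Whether the difference in *Atp6v0d2* differed from that in *Atp6v0d1* was not tested.

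**Figure D3:**
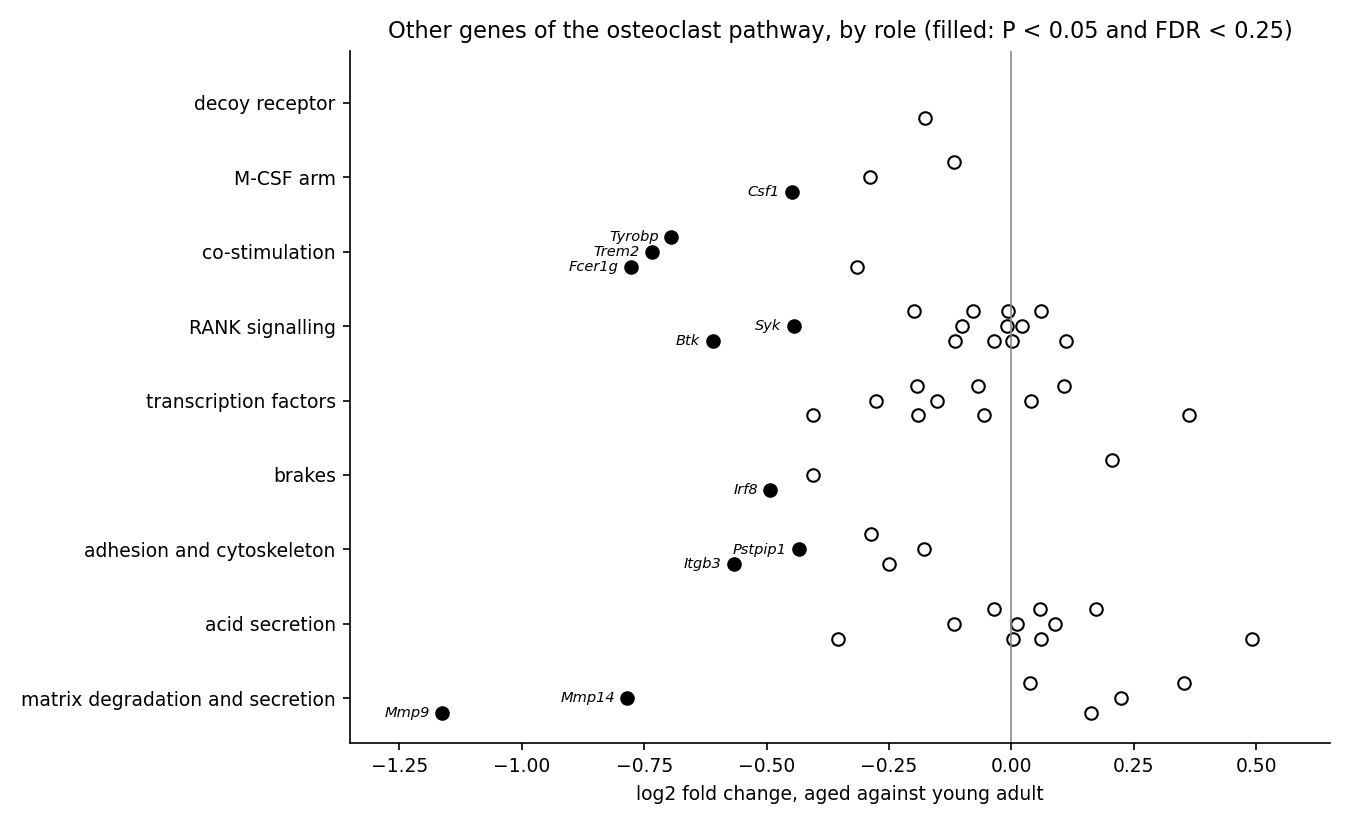
Log2 fold change, aged against young adult (horizontal axis), of the 55 other genes of the osteoclast pathway by role (rows); each point is 1 gene, filled and named where called, and points are spread vertically for legibility. All 11 filled points lie below 0, 3 of them among the 4 co-stimulation genes, and the 10 acid secretion genes hold none.

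Markers of other cell types moved with age too. Over all genes, 2.33% were called lower and 1.65% higher, the shares to set beside each list below. At an unadjusted limma P below 0.05 they were 7.08 and 6.05%. By that limit 10 osteoblast and osteocyte markers were lower and 1 higher. The counts were 7 and 0 for macrophage, 5 and 0 for cartilage and 3 and 2 for nasal gland markers. Of 13 osteoblast and osteocyte markers, 8 were called lower and 0 higher, with a median of -0.87 and a summed intensity of 66934 to 71050 in young adult mice and 25491 to 25532 in aged mice. *Col1a1*, the alpha1 chain of type I collagen, read 39301 and 37401 in young adult mice, against 9407 and 10079 in aged mice (-1.98, limma FDR = 0.168). It made up the largest part of the sum in young adult mice and of its fall. The paper saw cells with a type I collagen reporter mainly in the lamina propria, at lower density in aged mice. The sum is therefore not a measure of bone cells alone. *Ibsp*, the gene of bone sialoprotein, was at -1.09 (limma FDR = 0.187), and *Ifitm5*, which is restricted to osteoblasts, was at -1.01 (limma FDR = 0.185). Its probe was not above background on aged array 1, and it was at -0.59 with a normexp offset of 50 and -1.30 with the processed signal. In all, 12 of the 13 were lower and 1 higher. *Mepe* (-0.05, limma FDR = 0.923) and *Sp7* (-0.18, limma FDR = 0.814), named after their values were seen, had the smallest differences. The higher one, *Sost*, the marker of osteocytes, was not above background on any array. The part of osteoblasts and osteocytes in the fall of the osteoclast genes was not tested.

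Of 12 macrophage markers, 5 were called lower and 0 higher, with a median of -0.41 and a summed intensity of 16615 to 16775 in young adult mice and 13651 to 13807 in aged mice. All 12 were above background on every array. *Aif1* (-0.82, limma FDR = 0.178), *Cd68* (-0.78, limma FDR = 0.201) and *Mrc1* (-0.65, limma FDR = 0.201) had the largest differences among those called. In all, 11 of the 12 were lower and 1 higher. *Itgam* (-0.01, limma FDR = 0.983) and *Cd14* (0.07, limma FDR = 0.772), named after their values were seen, had the smallest differences. Macrophages share *Acp5*, *Ctsk*, *Tnfrsf11a*, *Oscar* and the co-stimulation genes with osteoclasts, and their part in the result was not tested.

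Of 9 cartilage markers, 2 were called lower and 0 higher, *Col2a1* (-1.84, limma FDR = 0.168) and *Acan* (-1.30, limma FDR = 0.208), and the sum ran from 5100 to 5254 in young adult mice and from 3681 to 3705 in aged mice. The *Acan* probe was not above background on aged array 1, and its value ran from -1.78 to -0.92 over the settings. In all, 7 of the 9 were lower and 2 higher. *Col9a1*, named after its values were seen, was at 0.42 (limma FDR = 0.569), with both aged arrays above the young adult arrays. *Matn1* and *Matn3* were not above background on any array. Of 9 T cell markers, 0 were called by limma and 0 had an unadjusted P below 0.05, with a sum of 1486 to 1787 in young adult mice and 1426 to 1464 in aged mice. *Cd4* was at -0.28 and *Cd3e* at 0.04, and *Cd8a* was not above background on any array. The part of either cell type was not tested.

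Of 8 olfactory neuron markers, 0 were called lower and 1 higher, *Stoml3* (0.43, limma FDR = 0.244, and 0.254 with 75th percentile scaling), with a sum of 448116 to 458615 in young adult mice and 492687 to 504619 in aged mice. At an unadjusted limma P below 0.05, 2 were lower and 2 higher, the lower ones being the immature neuron markers *Gap43* (-0.41, limma FDR = 0.251) and *Gng8* (-0.34, limma FDR = 0.297), named after their values were seen. Of 9 nasal gland markers, 1 was called lower, *Ltf* (-0.67, limma FDR = 0.201), and 2 higher, *Bpifb9b* (2.17, limma FDR = 0.168) and *Muc5b* (0.44, limma FDR = 0.245, and 0.288 with the most intense probe). The gland sum ran from 1065792 to 1078710 in young adult mice and from 925196 to 934757 in aged mice. All 17 genes of these lists were above background on every array, and their part in the result was not tested.

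**Figure D4:**
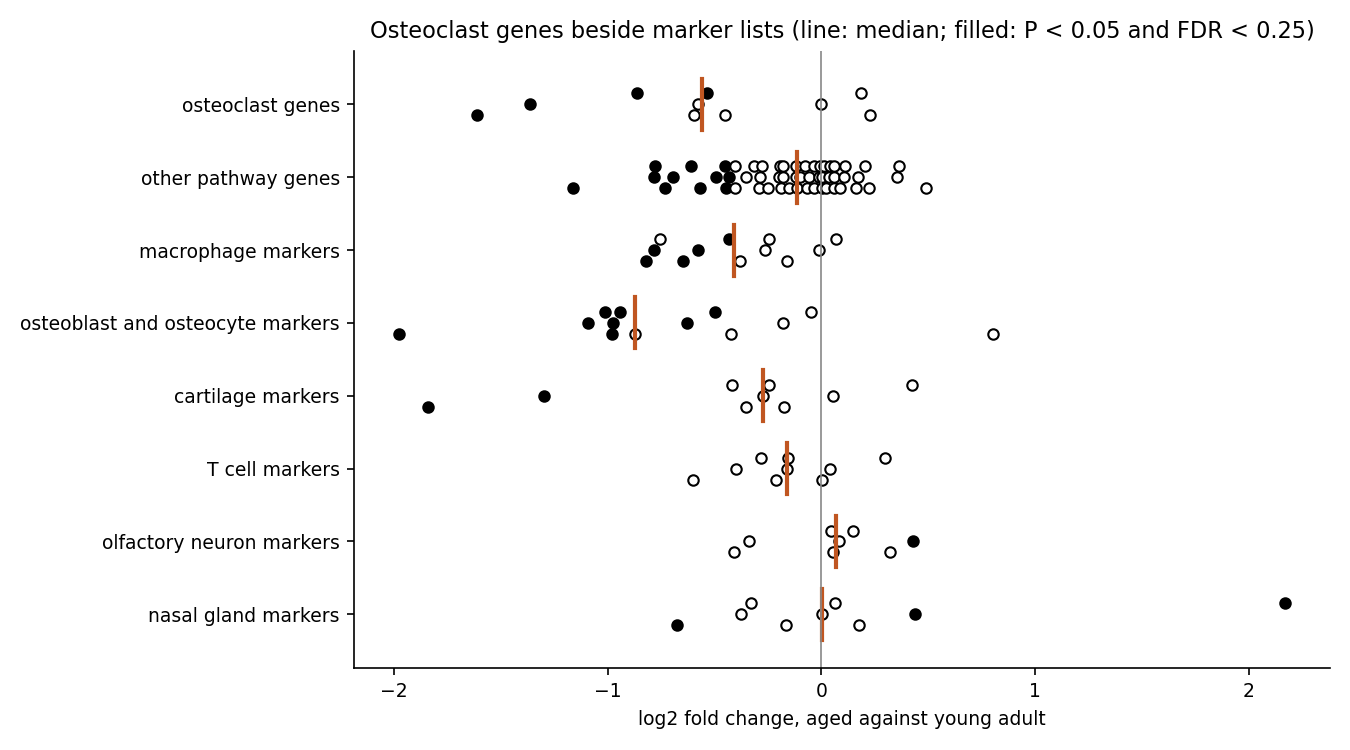
Log2 fold change, aged against young adult (horizontal axis), of the osteoclast genes, the other pathway genes and 6 marker lists (rows); each point is 1 gene, filled where called, and the orange line is the median. The medians were -0.56 for the osteoclast genes, -0.87 for osteoblast and osteocyte markers and -0.41 for macrophage markers, and 0.07 for olfactory neuron markers.

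The search for genes most like *Acp5* and *Ctsk* covered genes with a matched symbol and a mean intensity of at least 100. Those most alike over the 4 arrays had the smallest Euclidean distance between log2 values centred on each gene's mean. For *Acp5* they were *Chil1* (distance 0.123), *Olfr566* (0.129), *Gm13539* (0.135), *Scgb2b2* (0.142) and *Col1a2* (0.145). For *Ctsk* they were *Agt* (0.026), *Spp1* (0.0473), *2210409D07Rik* (0.0599), *Cd163l1* (0.0658) and *Olfr420* (0.0708). The nearest to *Acp5*, *Chil1*, averaged 7613 in young adult mice, against 2303 in aged mice. The nearest to *Ctsk*, *Agt*, averaged 4596 and 1801. Farther off, *Spp1*, the gene of osteopontin, a matrix protein of bone, averaged 8829 in young adult mice, against 3523 in aged mice. *Col1a2*, the alpha2 chain of type I collagen, averaged 94884 and 33151. With 4 arrays, such a pattern is little more than the size of the age difference and the spread within each age.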

How the data were processed

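RNA of the septal nasal mucosa was measured on 4 arrays, 2 per age, each from a pool of 5 mice. Spots were quantified by the authors in Feature Extraction 11.0.1.1, and they deposited, per spot, the median intensity, the median local background intensity, a processed intensity and quality flags, not normalized between arrays. The deposited value table equalled the processed intensity for all 251904 values and was no further source.

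From the deposited intensity, background was corrected by normexp (offset 0, not given in the sources used here) in limma 3.58.1 under R 4.3.3. Control and flagged spots were left out, spots of a probe were averaged, log2 values were quantile normalized, and probes of a gene were averaged. No spot of the 10 genes was flagged. Of 56605 probes, 32994 matched a RefSeq gene table of GRCm38.p6, and 12 genes with a missing value were left out. Ages were compared with lmFit and eBayes (2 residual and 1.38 prior degrees of freedom), at the study's thresholds. The code was tested on simulated data. A first simulation, with a larger spread, recovered none of the changed genes, so the spread was lowered to that within groups, and the test says little about power.

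The 10 genes and all lists were chosen with earlier results of these data known. Beyond the 10, the 8 pathway genes with the largest difference among those called, *Tnfrsf11b*, and up to 3 called genes per marker list (or its 2 most intense) were named. Alternatives covered the background, normalization, flags, dim probes, probe averaging, variance trend, pairing, slide, thresholds and each array left out. The number of arrays limits the precision. A further list examined after these results is not reported here.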

Additional observations from a re-analysis of the deposited data

How the results depend on the processing

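The fold changes of the 4 called osteoclast genes kept their sign in all 19 alternatives that gave values, from -1.63 to -1.59 for *Acp5*, -1.40 to -1.32 for *Ctsk*, -1.17 to -0.59 for *Dcstamp* and -0.68 to -0.44 for *Atp6v0d2*. The number of members called lower, 4 with all arrays, was 0 without any 1 array and 0 with the replicate block, but these fits leave 1 residual degree of freedom and called 0 of all 45604 genes (smallest limma FDR 0.404 to 0.683, and 0.433 with the block, against 3288 to 5317 and 5197 genes at an unadjusted P below 0.05), so they say nothing about stability. It was 0 at FDR below 0.1 or 0.05, which 3 and 0 of all genes passed, and 3 to 6 in the other settings of all 4 arrays. In the settings with 0, 0 members met all DEG criteria, against 3, and 0 pathway genes were called lower, against 11. Same-numbered samples did not deviate together (correlation -0.078), although those numbered 1 shared a slide and had local backgrounds of 67 and 63, against 32 and 39 for those numbered 2. The count of pathway genes called lower was 17 with a normexp offset of 50, 19 with probes well above background, and 20 with an intensity trend. With scaling to the 75th percentile it was 5 for the processed signal and 7 for the normexp signal. The quantile-normalized processed signal gave 12. Pathway genes called higher, 0 in the reported fit, were 1 with offset 16, 2 with offset 50, without background correction or with the quantile-normalized processed signal, 5 with bright probes or the trend, and 1 with the most intense probe or linear averages. With the trend 1 member, *Nfatc1*, was called higher. The members' median ran from -0.75 to -0.40 and was -0.75 and -0.73 with the processed signal (75th percentile and quantile) and -0.61 to -0.45 without 1 array. Judged by the SD over 4 array pairs (0.161), 2 of 19 settings moved it; by the SD over the 2 same-numbered pairs (0.0065), the yardstick tried first, 14 did, and the wider one was chosen after seeing this.

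The sign turned for 4 genes that were not called. *Calcr* (-0.0024) was 0.035 and 0.042 with offsets 16 and 50, 0.091 without background correction, 0.46 and 0.27 with the processed signal (75th percentile and quantile), 0.0021 with 75th percentile scaling, 0.0012 with cyclic loess, 0.27 with bright probes or the most intense probe, 0.14 with linear averages, 0.30 outside the shared slide, and -0.23 to 0.23 without 1 array (0.064 without young adult array 1, 0.23 without aged array 1). *Tnfsf11* was -0.011 to 0.46 without 1 array. *Cd3e* was -0.13 with the most intense probe, -0.095 with linear averages, -0.087 outside the shared slide and -0.11 to 0.19 without 1 array. *Cd4* was 0.24 within the shared slide and -0.66 to 0.10 without 1 array. The cause was not tested. The comparison outside the shared slide was added after seeing the data. The slide could not be fitted as a random block.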

Other observations

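Of other cathepsins and acid phosphatases, lists chosen after the values of *Ctsk* and *Acp5* were seen, none was called by limma. Of 11 other cathepsins, 10 were lower and 1 higher, with a median log2 fold change of -0.19 and 2 at an unadjusted P below 0.05, *Ctsz* (-0.40, limma FDR = 0.287) and *Ctsh* (-0.39, limma FDR = 0.264). *Ctsb*, a cathepsin of most cells, read 57606 and 58365 in young adult mice, against 59050 and 56483 in aged mice, and its ages overlapped. Of 5 other acid phosphatases, 3 were lower and 2 higher, with a median of -0.02 and 0 at an unadjusted limma P below 0.05. The difference between *Ctsk* or *Acp5* and these genes was not tested.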
